A study of Bos taurus with 30 samples.

Results

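Uterine brushings of 10 dairy cows which all stayed free of uterine disease were compared by the share of neutrophils in the uterus a week after calving. All were Holstein-Friesian cows, sampled by cytobrush 7 days postpartum (DPP) and classed as healthy at 21 DPP, and polyadenylated RNA of 1 cow made each library. In 5 of them (s1066, s1570, s1831, s2053 and s2392) polymorphonuclear cells (PMN, in practice neutrophils) made up 18% or more of the cells counted on the smear at 7 DPP. These are called high PMN cows here. In the other 5 (s1340, s1890, s2006, s2224 and s2570), called low PMN cows, the share was under 18%. They are 10 of the 30 cows of the series, of which the other 20 were labelled Clinical (10) or Sub-clinical (10). The deposited labels give only the health status, and the division by PMN followed the study's own cytology. Each cow was sampled once, so the cows of a group are its replicates. In the order of cows used below, values of high PMN cows run s1066, s1570, s1831, s2053, s2392, and values of low PMN cows run s1340, s1890, s2006, s2224, s2570.

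After calving the bovine uterus sheds the remnants of the placental attachment, clears bacteria and regrows its epithelium. Neutrophils move into the lumen first, macrophages follow, and in many cows the inflammation subsides without disease. A cytobrush removes cells of the luminal surface with whatever lies beneath or upon it, so that epithelium, connective tissue, vessels and leukocytes can all contribute RNA. In such bulk samples fewer cells of a type and less RNA per cell cannot be told apart.

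Libraries of high PMN cows held 11922966 to 23493992 counted reads (mean 17925528 ± 4615477, SD, n = 5), and those of low PMN cows 12387056 to 26644659 (mean 22207253 ± 5686367, SD, n = 5). The difference was smaller than the spread between cows (exact two-sided permutation test over all splits of the cows, p = 0.230). Epithelial markers were present in every library, with 599 to 1682 summed CPM (the reads of a gene, scaled so that the counted reads of every library have the same total) over 19 genes in high PMN cows and 776 to 7858 in low PMN cows. The first principal component of the 10424 tested genes carried 65.4% of the variance and the second 10.9%. Scores on the first were 74.0, 67.7, 25.7, 65.9 and 57.5 in high PMN cows, against -119.3, 65.7, -12.1, -98.0 and -127.1 in low PMN cows. The means differed by 116.3 (exact two-sided permutation test, p = 0.0238, where 0.00794 is the smallest p that the splits allow).

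One library stood apart from its group. Cow s1890, labelled low PMN, had a score of 65.7 among those of the high PMN cows, and its nearest neighbour over all tested genes was the high PMN cow s1066 (Euclidean distance 44.1 on the log2 scale, Pearson r across genes 0.969, where genes are not independent replicates). Its level lay within the range of the 5 high PMN cows for 8924 of 10424 genes (85.6%), against 58.0% for s2006 and 33.96% to 47.2% for the other 3 low PMN cows. Cow s2006 lay between the groups on the first component. Its mean distance was 129 from high PMN cows, 139 from the other low PMN cows and 144.6 from those other than s1890. The nearest neighbour of s2006 was the high PMN cow s2053, at a distance of 120.3. What set s1890 among the high PMN cows was not tested. Fold changes and adjusted p values of single genes below are with all 10 cows unless stated. Some list medians and counts of called genes are therefore also given without s1890. That cow was set aside on its values, so results without it are not independent evidence. Without it the difference in the first component was 147.2 (p = 0.00794 by the exact test, the smallest that 126 splits allow). Mean pairwise distance was 94.8 within high PMN cows and 137.3 within low PMN cows (difference -42.6, exact two-sided permutation p = 0.103), and 112.9 within low PMN cows without s1890 (difference -18.1, p = 0.476 by the same exact test).

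**Figure D1:**
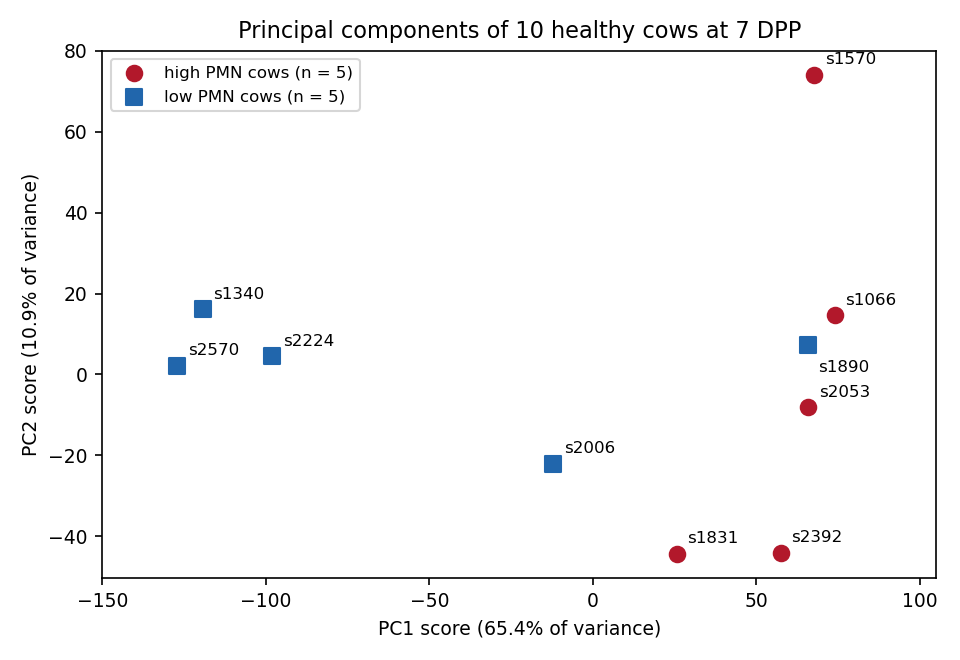
Scores of the 10 healthy cows on the first (x axis) and second (y axis) principal component of log2(CPM + 1) over the tested genes, with red circles for high PMN cows, blue squares for low PMN cows and the cow number beside each point. Low PMN cow s1890, at 65.7 on the first component, sits beside high PMN cow s1066, at 74.0.

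Each gene was tested by limma on log2(CPM + 1), with fold changes as high PMN minus low PMN, and counted as called where the p value, adjusted after Benjamini and Hochberg, was under 0.05 and the log2 fold change exceeded 1 in either direction. Because 1 CPM is added, changes of genes with few reads come out too small. No gene was called (0% of 10424), and the smallest adjusted p was 0.111. At an unadjusted p under 0.05 stood 2691 genes, of which 1737 (16.7%) were higher and 954 (9.15%) lower in high PMN cows. edgeR also called 0 genes (2331 at an unadjusted p under 0.05, smallest adjusted p 0.114), whereas DESeq2, run like edgeR on reads recovered from the CPM, called 238 higher (2.28%) and 643 lower (6.17%). Without s1890 limma called 1510 genes higher (14.5%) and 641 lower (6.15%), or 1334 and 863 when libraries were scaled by relative log expression. The median log2 fold change of all tested genes was 0.14 as deposited and 0.17 without s1890, and close to 0 after that scaling, so list medians below are read against 0.14. Of all tested genes 59.4% had a higher mean log2(CPM + 1) in high PMN cows, and counts of higher means in a list are read against that share. Adjusted p values below are limma's and equal 0.111 where none is printed.

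In 122 genes the groups did not overlap, that is, all 5 high PMN cows lay above (55 genes, 0.528%) or below (67 genes, 0.643%) all 5 low PMN cows in spite of s1890. These genes are described first. They were chosen for this separation, which is therefore no finding about them. DESeq2 called 77 of them, and 74 were called by limma without s1890. Their choice by separation in the same cows favours such calls, so these counts add no support. Of all tested genes DESeq2 called 2.28% higher and 6.17% lower, and limma without s1890 called 14.5% higher and 6.15% lower. The genes named here come from the smallest p values or are leading members of the gene lists used below, and GJB2, LGMN, DUSP6, SRGN, the splicing and centrosome genes, and S100A8, S100A9 and CSF3R were picked after their values were seen.

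The first genes described were higher in every high PMN cow. ATP12A (ENSBTAG00000014486), a proton pump which exchanges potassium for acid at epithelial surfaces, was at 27.3, 17.1, 112, 53.5 and 109 CPM in high PMN cows, against 0.274, 16.9, 1.37, 0.0849 and 0.915 CPM in low PMN cows (log2 fold change 4.31, SE 0.80). The lowest high PMN cow, s1570, and s1890 differed by less than 1 CPM, while the other 4 low PMN cows were far below. GJB1 (ENSBTAG00000020512), a connexin of gap junctions which couple neighbouring epithelial cells, was at 12.8, 4.50, 55.4, 59.4 and 109.9 CPM in high PMN cows, against 0.431, 3.87, 1.05, 0.467 and 0.0436 CPM in low PMN cows (log2 fold change 4.06, SE 0.80). Its partner connexin GJB2 (ENSBTAG00000017425) averaged 122 ± 68.0 CPM in high PMN cows and 26.9 ± 18.6 CPM in low PMN cows (SD, n = 5 each, as for every mean below; log2 fold change 2.22, SE 0.47). For GJB1 the gap between s1890 and the lowest high PMN cow was again narrow, and among high PMN cows the level spread widely.

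DPT (ENSBTAG00000021211), dermatopontin, a small matrix protein which helps collagen fibres assemble, was at 13.2, 14.4, 33.5, 18.03 and 15.5 CPM in high PMN cows, against 1.22, 9.46, 2.26, 1.10 and 0.261 CPM in low PMN cows (log2 fold change 2.71, SE 0.54). Here s1890 came closest among low PMN cows, and the other 4 had little of it. ACOT7 (ENSBTAG00000021202), an enzyme which frees fatty acids from coenzyme A, was at 23.4, 20.97, 16.1, 23.7 and 20.1 CPM in high PMN cows, against 5.84, 13.5, 5.49, 7.35 and 4.31 CPM in low PMN cows (log2 fold change 1.48, SE 0.29). EDNRB (ENSBTAG00000005299), a receptor for the vasoactive peptide endothelin, was at 57.5, 90.2, 84.0, 85.1 and 105.3 CPM in high PMN cows, against 0.196, 49.2, 7.18, 1.70 and 1.92 CPM in low PMN cows (log2 fold change 4.01, SE 0.83). In EDNRB the low PMN cows other than s1890 ranged over more than an order of magnitude, all far below the high PMN cows. GADD45G (ENSBTAG00000003033), a stress-induced regulator of growth arrest, had the levels 18.4, 17.1, 19.5, 13.6 and 29.5 CPM in high PMN cows, against 0.980, 10.2, 4.36, 1.996 and 0.610 CPM in low PMN cows (log2 fold change 2.49, SE 0.51). PTPN1 (ENSBTAG00000006616), a phosphatase which damps insulin and cytokine receptor signals, differed less, with 77.0 ± 19.7 CPM in high PMN cows and 33.0 ± 9.14 CPM in low PMN cows (log2 fold change 1.20, SE 0.25). DUSP6 (ENSBTAG00000004587), which switches off the kinase ERK, averaged 139.6 ± 73.6 CPM in high PMN cows and 42.2 ± 26.8 CPM in low PMN cows (log2 fold change 1.76, SE 0.40).

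Some genes with roles in leukocytes were also higher in every high PMN cow. Of the 15 tested macrophage and monocyte genes and the 18 tested neutrophil genes 0 were. This is near the share of all tested genes (0.528%), so it sets neither list apart. C5AR1 (ENSBTAG00000020872), the receptor through which the complement anaphylatoxin draws in neutrophils and macrophages, was at 29.9, 87.4, 37.1, 36.4 and 55.8 CPM in high PMN cows, against 2.24, 28.1, 5.81, 7.43 and 3.40 CPM in low PMN cows (log2 fold change 2.64, SE 0.55). The lowest high PMN cow and s1890 were close for this receptor, and the remaining low PMN cows had a small part of that level. CFP (ENSBTAG00000015815), properdin, which leukocytes release to stabilise the alternative complement pathway, was at 16.3, 32.3, 16.8, 23.9 and 61.0 CPM in high PMN cows, against 0.863, 14.7, 2.83, 2.29 and 0.392 CPM in low PMN cows (log2 fold change 2.98, SE 0.64). NRROS (ENSBTAG00000009614), which holds latent TGF-beta on the surface of myeloid cells, was at 7.58, 23.2, 10.99, 11.05 and 20.4 CPM in high PMN cows, against 0.431, 7.06, 1.21, 0.807 and 0.0871 CPM in low PMN cows (log2 fold change 2.73, SE 0.57). As for C5AR1 and CFP, s1890 was the highest low PMN cow. CCL16 (ENSBTAG00000007193), a chemokine which in humans attracts monocytes and lymphocytes, was at 8.09, 8.80, 17.8, 5.96 and 25.0 CPM in high PMN cows, against 0.510, 4.88, 1.37, 1.78 and 0.131 CPM in low PMN cows (log2 fold change 2.43, SE 0.54). Legumain, a lysosomal protease encoded by LGMN (ENSBTAG00000046979), averaged 1476 ± 409 CPM in high PMN cows and 284 ± 339 CPM in low PMN cows (log2 fold change 3.02, SE 0.63), and serglycin, the granule proteoglycan of leukocytes encoded by SRGN (ENSBTAG00000017863), averaged 447 ± 403 CPM in high PMN cows and 105.2 ± 78.3 CPM in low PMN cows (log2 fold change 2.24, SE 0.73, adjusted p 0.119).

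The next genes were lower in every high PMN cow. SATB1 (ENSBTAG00000021158), which anchors chromatin loops, was at 20.47, 12.2, 14.8, 14.7 and 9.35 CPM in high PMN cows, against 39.4, 21.6, 58.2, 46.3 and 45.7 CPM in low PMN cows (log2 fold change -1.47, SE 0.29). In SATB1 the lowest low PMN cow, s1890, and the highest high PMN cow were near each other. SYCP3 (ENSBTAG00000002492), a structural protein of the paired chromosomes of meiosis, was at 3.92, 3.43, 8.39, 3.303 and 3.12 CPM in high PMN cows, against 31.1, 9.76, 14.7, 15.7 and 36.5 CPM in low PMN cows (log2 fold change -1.98, SE 0.40). MYBPC2 (ENSBTAG00000020080), a myosin-binding protein of fast muscle fibres, was at 3.28, 3.16, 0.755, 2.54 and 0.719 CPM in high PMN cows, against 14.7, 16.8, 20.9, 106 and 11.9 CPM in low PMN cows (log2 fold change -3.09, SE 0.58). For MYBPC2 cow s2224 carried much of the low PMN mean, and s1890 was not the lowest low PMN cow. SLC16A7 (ENSBTAG00000021287), a carrier of pyruvate and lactate, was at 6.002, 2.22, 4.36, 4.22 and 0.527 CPM in high PMN cows, against 12.4, 9.50, 16.1, 22.3 and 37.0 CPM in low PMN cows (log2 fold change -2.22, SE 0.49). IL18 (ENSBTAG00000000277), a cytokine of the IL-1 family which epithelium stores as a precursor, was at 13.3, 10.4, 14.8, 9.31 and 4.46 CPM in high PMN cows, against 24.8, 19.9, 23.7, 36.4 and 30.8 CPM in low PMN cows (log2 fold change -1.35, SE 0.31). It was the only one of 33 tested cytokine and cytokine receptor genes whose groups did not overlap. Of all tested genes 0.528% were higher and 0.643% lower without overlap, so this count does not set the list apart. SNX16 (ENSBTAG00000019639), which sorts cargo in endosomes, averaged 19.8 ± 5.50 CPM in high PMN cows and 43.4 ± 10.6 CPM in low PMN cows (log2 fold change -1.10, SE 0.24), and TMEM106B (ENSBTAG00000019750), a lysosomal membrane protein, averaged 32.3 ± 7.502 CPM in high PMN cows and 72.9 ± 26.4 CPM in low PMN cows (log2 fold change -1.12, SE 0.25).

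Genes of splicing and of the centrosome among those lower in every high PMN cow were picked after their values were seen and are given without a test. CLK1 (ENSBTAG00000005408), a kinase which phosphorylates the SR proteins of splicing, was at 166, 153, 149, 98.1 and 102 CPM in high PMN cows, against 213, 241, 426, 239 and 251.7 CPM in low PMN cows (log2 fold change -1.02, SE 0.24). Its relative CLK4 averaged 45.6 ± 12.6 CPM in high PMN cows and 93.1 ± 46.5 CPM in low PMN cows (log2 fold change -0.95, SE 0.31, adjusted p 0.118). RNPC3, a protein of the minor spliceosome, averaged 15.0 ± 3.15 CPM in high PMN cows and 30.4 ± 8.93 CPM in low PMN cows (log2 fold change -0.95, SE 0.24), and the SR-related protein SRSF11 averaged 94.0 ± 9.88 CPM in high PMN cows and 129.6 ± 13.6 CPM in low PMN cows (log2 fold change -0.46, SE 0.15, adjusted p 0.118). These differences were small in size but no high PMN cow reached the lowest low PMN cow. AKAP9, a scaffold of centrosome and Golgi, averaged 107 ± 19.3 CPM in high PMN cows and 236 ± 94.6 CPM in low PMN cows (log2 fold change -1.06, SE 0.28), and CSPP1, of the spindle poles and cilia, averaged 14.9 ± 1.68 CPM in high PMN cows and 27.9 ± 8.35 CPM in low PMN cows (log2 fold change -0.81, SE 0.23). CEP95, a centrosomal protein, had 40.6 ± 7.83 CPM in high PMN cows and 66.4 ± 14.0 CPM in low PMN cows (log2 fold change -0.69, SE 0.19), and KIF27, a kinesin-like protein, had 38.3 ± 4.96 CPM in high PMN cows and 90.3 ± 42.4 CPM in low PMN cows (log2 fold change -1.11, SE 0.29).

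**Figure D2:**
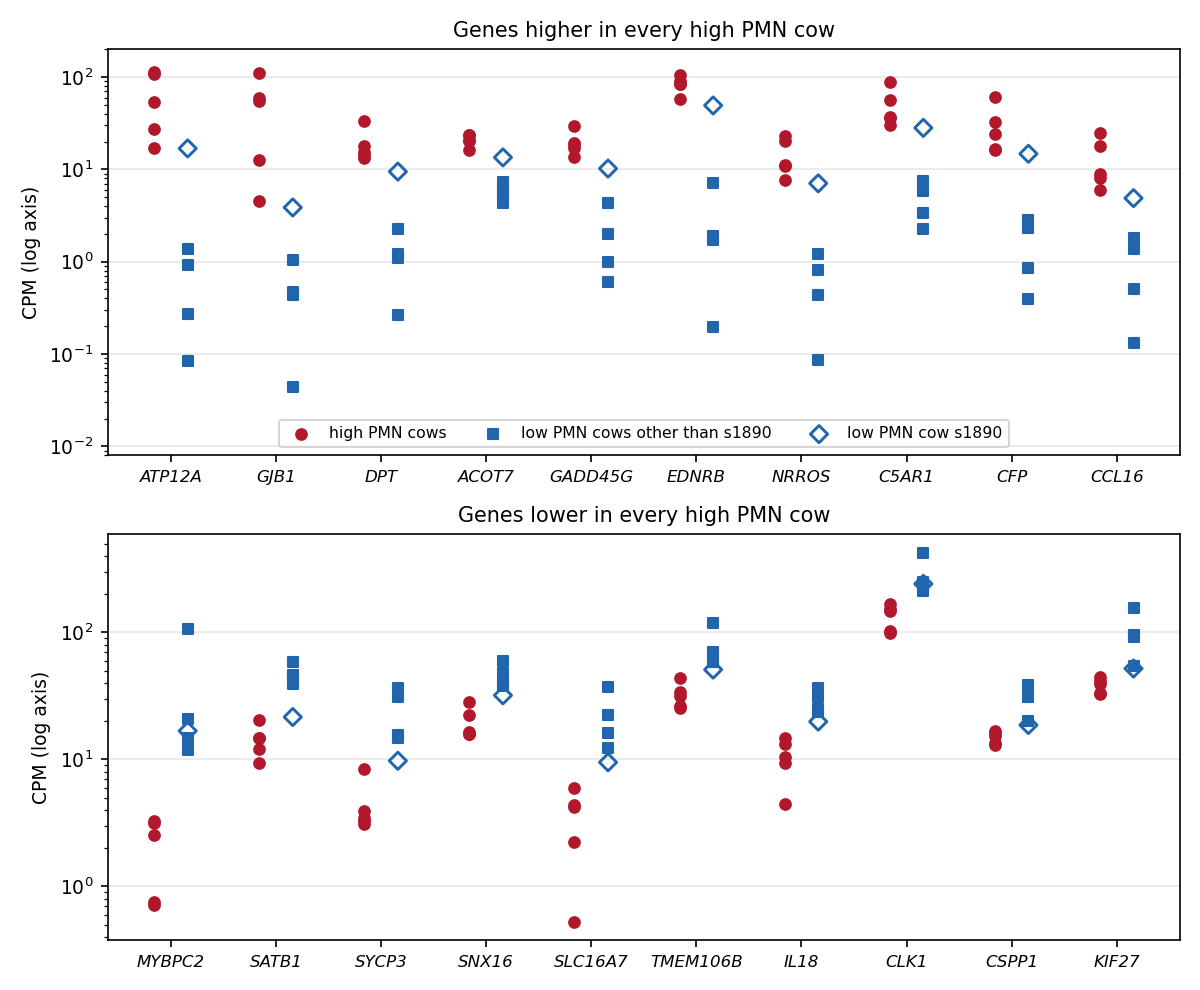
CPM per cow on a log axis for 10 genes higher in every high PMN cow (top) and 10 lower in every high PMN cow (bottom), with red circles for high PMN cows, blue squares for low PMN cows other than s1890 and an open diamond for s1890. In the upper panel s1890 is the low PMN cow nearest to the high PMN cows for each gene, as for ATP12A, with 17.1 CPM in high PMN cow s1570 and 16.9 CPM in s1890.

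Some genes of small p had overlapping groups because of s1890 alone or nearly so. SIGLEC1 (ENSBTAG00000013167), a sialic acid receptor of macrophages, was at 24.1, 51.8, 61.2, 78.7 and 211 CPM in high PMN cows, against 0.0392, 26.9, 1.13, 0.127 and 0.0871 CPM in low PMN cows (log2 fold change 4.83, SE 0.92). HMCN1 (ENSBTAG00000015235), a large protein of basement membranes, averaged 26.6 ± 23.2 CPM in high PMN cows and 1.51 ± 2.32 CPM in low PMN cows (log2 fold change 3.42, SE 0.69). HBEGF (ENSBTAG00000021766), an epidermal growth factor shed at wounds, was at 30.1, 89.5, 44.3, 44.1 and 51.5 CPM in high PMN cows, against 2.12, 33.8, 5.73, 3.57 and 3.53 CPM in low PMN cows (log2 fold change 2.86, SE 0.59). In SIGLEC1 and HBEGF s1890 exceeded at least 1 high PMN cow, and no other low PMN cow did. On the lower side CES1 (ENSBTAG00000011021), a carboxylesterase, was at 0, 0.672, 2.35, 0.704 and 0.144 CPM in high PMN cows, against 478, 1.80, 81.9, 186 and 199 CPM in low PMN cows (log2 fold change -5.70, SE 1.16). ST6GAL1 (ENSBTAG00000010357), which caps glycans with sialic acid, averaged 9.81 ± 3.26 CPM in high PMN cows and 125 ± 93.1 CPM in low PMN cows (log2 fold change -3.06, SE 0.68), and COL4A5, a collagen of basement membranes, averaged 2.92 ± 1.78 CPM in high PMN cows and 32.9 ± 20.52 CPM in low PMN cows (log2 fold change -2.88, SE 0.61). DESeq2 called these 6 genes with all 10 cows, CES1 with an adjusted p of 1.79e-09 and SIGLEC1 with 0.0317.

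Neutrophil transcripts had higher mean levels in the cows with more neutrophils on the smear, but with much overlap. Of 36 listed neutrophil genes 18 were tested, 17 with a higher and 1 with a lower mean, at a median log2 fold change of 1.88 (2.17 without s1890). DESeq2 called 6 of them higher, against 2.28% of all tested genes, and limma without s1890 called 7, against 14.5%. Summed over the list, high PMN cows had 840.0 to 7542 CPM and low PMN cows 180.3 to 1626 CPM, the highest of them s1890. S100A12 (ENSBTAG00000012638), an alarmin of granulocytes, was at 479.5, 3679.6, 1633, 371 and 172 CPM in high PMN cows, against 90.3, 375, 117, 123 and 501 CPM in low PMN cows (log2 fold change 1.90, SE 0.82, adjusted p 0.176). Low PMN cow s2570 stood above 3 high PMN cows for this gene. S100A8 averaged 213 ± 272 CPM in high PMN cows and 29.2 ± 15.5 CPM in low PMN cows (log2 fold change 1.82, SE 0.93, adjusted p 0.240), and its partner S100A9 averaged 143 ± 165 CPM in high PMN cows and 29.7 ± 15.3 CPM in low PMN cows (log2 fold change 1.603, SE 0.74, adjusted p 0.201). The receptor for granulocyte colony-stimulating factor, CSF3R (ENSBTAG00000013334), was at 7.83, 47.4, 6.54, 9.91 and 3.36 CPM in high PMN cows, against 2.0, 1.65, 14.6, 45.6 and 3.181 CPM in low PMN cows (log2 fold change 0.53, SE 0.88, adjusted p 0.724), and the groups overlapped throughout. The direction of CSF3R rested on s1570, without which its log2 fold change was -0.0057, and it also turned with array weights and with edgeR or DESeq2 without s1890. The neutrophil chemokine receptors CXCR1 and CXCR2 were not analysed here.

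The 3 genes of smallest p in the neutrophil list were FCGR3A, ITGAM and NCF4, which macrophages also express. FCGR3A (ENSBTAG00000002096), a low-affinity receptor for IgG, was at 31.2, 42.5, 65.3, 49.2 and 28.1 CPM in high PMN cows, against 3.88, 28.9, 7.83, 10.6 and 2.22 CPM in low PMN cows (log2 fold change 2.29, SE 0.54). ITGAM, the integrin chain CD11b, averaged 246 ± 125 CPM in high PMN cows and 51.7 ± 105.5 CPM in low PMN cows (log2 fold change 4.58, SE 1.13), and NCF4, a subunit of the phagocyte oxidase, averaged 19.8 ± 8.34 CPM in high PMN cows and 4.91 ± 7.10 CPM in low PMN cows (log2 fold change 2.48, SE 0.69). Of the macrophage and monocyte list all 15 tested genes had higher means, at 7075 to 48827 summed CPM in high PMN cows and 388 to 32026 in low PMN cows, where s1890 was at 32026 CPM. Their part in the genes named here was not tested.

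Receptors and enzymes with which phagocytes bind and digest coated particles all leaned one way. Each of 20 tested genes of the Fc receptor and phagocytosis list had a higher mean, with a median log2 fold change of 2.16 (2.72 without s1890). DESeq2 called 3 higher, against 2.28% of all tested genes, and 15 were called higher by limma without s1890, against 14.5%. FCER1G, the signalling chain shared by Fc receptors, averaged 153 ± 108 CPM in high PMN cows and 29.7 ± 43.4 CPM in low PMN cows (log2 fold change 3.03, SE 0.73). FCGRT (ENSBTAG00000013926), the receptor which rescues IgG from breakdown, had groups that did not overlap, at 368, 580.4, 313, 386 and 611 CPM in high PMN cows, against 199, 313, 202, 306 and 136 CPM in low PMN cows (log2 fold change 0.98, SE 0.29). The highest low PMN cow, s1890, was within 1 CPM of the lowest high PMN cow for FCGRT.

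Chemokine genes mostly had higher means, but the most abundant of them had a lower one. Of 21 tested, 16 had higher and 5 lower means (median 2.003, 2.58 without s1890 and 1.10 without s1570). The most abundant was CXCL17 (ENSBTAG00000018652), a mucosal chemokine of glandular epithelium, at 0, 1.48, 11.9, 3.79 and 0.0479 CPM in high PMN cows, against 1749, 5.10, 121, 1043 and 1029.6 CPM in low PMN cows (log2 fold change -6.61, SE 1.45), called by DESeq2 with an adjusted p of 1.40e-06. The sum over the list, 860.0 to 2711 CPM in high PMN cows and 1009.8 to 1967 in low PMN cows, overlapped. Among cytokines and their receptors 28 of 33 had higher means (median 0.84, and 0.50 without s1570). CSF1, the growth factor of macrophages, averaged 134 ± 162 CPM in high PMN cows and 16.1 ± 24.9 CPM in low PMN cows (log2 fold change 3.79, SE 1.04), and IL10RA, a chain of the receptor for the anti-inflammatory cytokine IL-10, averaged 26.7 ± 7.57 CPM in high PMN cows and 6.33 ± 8.84 CPM in low PMN cows (log2 fold change 2.45, SE 0.57). The IL-1 antagonist IL1RN (ENSBTAG00000019665) was at 1035, 6017, 223, 1082 and 82.4 CPM in high PMN cows, against 29.5, 601, 466, 39.1 and 55.1 CPM in low PMN cows (log2 fold change 2.53, SE 1.22, adjusted p 0.216). The 6017 CPM of s1570 made most of the high PMN mean of IL1RN.

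The NF-kB and interferon lists had medians nearer to that of all tested genes. Of the NF-kB list 18 of 22 had higher means (median 0.48, and 0.28 without s1570), and of the interferon list 25 of 34 (median 0.56, 0.25 without s1570 and 0.29 without s1340). TNFAIP2, induced by tumour necrosis factor, did not overlap between groups and averaged 18.3 ± 6.16 CPM in high PMN cows and 5.03 ± 2.67 CPM in low PMN cows (log2 fold change 1.74, SE 0.39). ICAM1, the adhesion molecule on which leukocytes cross vessel walls, averaged 144 ± 49.2 CPM in high PMN cows and 36.9 ± 40.9 CPM in low PMN cows (log2 fold change 2.40, SE 0.55). GBP5, a guanylate-binding protein of the inflammasome, averaged 15.9 ± 7.30 CPM in high PMN cows and 4.65 ± 2.67 CPM in low PMN cows (log2 fold change 1.59, SE 0.41), while B2M, the light chain of MHC class I, averaged 1917 ± 1139 CPM in high PMN cows and 4546 ± 2076 CPM in low PMN cows (log2 fold change -1.27, SE 0.48, adjusted p 0.143). Only 5 of 26 genes of the list for MHC class II presentation were tested, so that presentation is hardly covered. BATF3, a transcription factor of dendritic cells in the mouse which this list includes, did not overlap between groups. It averaged 5.07 ± 2.24 CPM in high PMN cows and 1.32 ± 1.19 CPM in low PMN cows (log2 fold change 1.45, SE 0.46, adjusted p 0.117). Of 9 checkpoint and regulator genes 7 had higher means (median 1.51). CD86, with which antigen-presenting cells costimulate T cells, averaged 141 ± 72.2 CPM in high PMN cows and 22.0 ± 42.1 CPM in low PMN cows (log2 fold change 4.18, SE 0.92). NOS2, the inducible nitric oxide synthase, averaged 277 ± 363 CPM in high PMN cows and 62.2 ± 85.2 CPM in low PMN cows (log2 fold change 3.58, SE 1.76, adjusted p 0.224).

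Few lymphocyte genes were tested. T and NK cell genes had higher means in 6 and lower means in 3 of 9 tested (median 0.16, close to the 0.14 of all genes, and 0.031 without s1831 to 0.42 without s2224). NKG7, of cytotoxic granules, averaged 85.1 ± 25.0 CPM in high PMN cows and 20.1 ± 27.7 CPM in low PMN cows (log2 fold change 2.79, SE 0.66). Of the B and plasma cell list 3 of 17 were tested, of which 2 had higher means and 1 a lower mean (median 2.14). The complement receptor CR2 (ENSBTAG00000038496), which marks B cells and follicular dendritic cells, was at 9.15, 48.2, 218, 37.3 and 236 CPM in high PMN cows, against 0.196, 24.1, 1.86, 0.552 and 0.261 CPM in low PMN cows (log2 fold change 4.50, SE 1.04).

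Glycolytic and hypoxia-induced genes had higher means in 26 of 27 cases (median 1.11, and 1.42 without s1890). DESeq2 called 2 higher, against 2.28% of all tested genes, and limma without s1890 called 9, against 14.5%. EGLN3 (ENSBTAG00000008172), a prolyl hydroxylase which hypoxia induces and which marks hypoxia-inducible factor for decay, was at 278, 414, 297, 196 and 157 CPM in high PMN cows, against 28.5, 172, 41.6, 22.0 and 38.9 CPM in low PMN cows (log2 fold change 2.48, SE 0.50). PFKFB3, which makes the activator of phosphofructokinase, averaged 198 ± 65.2 CPM in high PMN cows and 67.3 ± 50.9 CPM in low PMN cows (log2 fold change 1.73, SE 0.42), and HIF1A, the oxygen-regulated factor itself, averaged 692 ± 222 CPM in high PMN cows and 342 ± 159 CPM in low PMN cows (log2 fold change 1.11, SE 0.39, adjusted p 0.129). GAPDH (ENSBTAG00000014731) was at 4031, 8062, 782, 2940.5 and 903 CPM in high PMN cows, against 415, 2778, 1580.3, 585 and 306 CPM in low PMN cows (log2 fold change 1.54, SE 0.78, adjusted p 0.238). Cow s1570 had by far the most GAPDH, and 2 high PMN cows lay within the range of the low PMN cows.

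Iron, vitamin D and retinoid genes followed. In the iron and vitamin D list 16 of 17 had higher means (median 1.44). CYP24A1 (ENSBTAG00000002765), which inactivates vitamin D and is induced by it, was at 8.13, 3.02, 30.4, 10.9 and 33.7 CPM in high PMN cows, against 0.353, 3.98, 0.404, 0.255 and 0.871 CPM in low PMN cows (log2 fold change 2.88, SE 0.66), with a DESeq2 adjusted p of 4.35e-04. STEAP4, which reduces iron and copper, averaged 44.6 ± 29.3 CPM in high PMN cows and 7.99 ± 4.29 CPM in low PMN cows (log2 fold change 2.32, SE 0.63) with no overlap. FTH1, the heavy chain of ferritin, averaged 5963 ± 2178.1 CPM in high PMN cows and 2527 ± 1349 CPM in low PMN cows (log2 fold change 1.35, SE 0.44, adjusted p 0.118). The opposite case was CP (ENSBTAG00000012164), ceruloplasmin, the ferroxidase of plasma and secretions, at 18, 5.64, 43.8, 24.6 and 18.2 CPM in high PMN cows, against 758, 27.96, 203, 1119 and 1902 CPM in low PMN cows (log2 fold change -4.34, SE 1.02). In the retinoid list 13 of 17 had higher means (median 1.67, and 2.29 without s1890). CYP26A1 (ENSBTAG00000021118), which breaks down retinoic acid and is induced by it, was at 12.1, 1.68, 10.7, 17.5 and 9.44 CPM in high PMN cows, against 0, 2.33, 0, 0.0849 and 0 CPM in low PMN cows (log2 fold change 2.89, SE 0.62). CRABP2, which carries retinoic acid to its nuclear receptor, averaged 309 ± 109.9 CPM in high PMN cows and 62.0 ± 101 CPM in low PMN cows (log2 fold change 3.97, SE 1.04), RBP4, the retinol carrier, averaged 124 ± 68.7 CPM in high PMN cows and 28.8 ± 21.8 CPM in low PMN cows (log2 fold change 2.40, SE 0.66), and RARRES1, named for its induction by retinoids, averaged 2629.6 ± 663 CPM in high PMN cows and 764 ± 1299 CPM in low PMN cows (log2 fold change 3.53, SE 1.07).

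Epithelial markers mostly had lower means in high PMN cows. Of 19 general epithelial markers 18 were lower (median -1.51, and -2.04 without s1890). DESeq2 called 13 of them lower, against 6.17% of all tested genes. KRT19 (ENSBTAG00000004905), a keratin of simple epithelium, was at 48.6, 49.3, 69.1, 93.1 and 63.0 CPM in high PMN cows, against 1450.1, 48.0, 886, 869 and 379.7 CPM in low PMN cows (log2 fold change -2.85, SE 0.78). Low PMN cow s1890 was the lowest of all 10 cows, and the other 4 low PMN cows lay above every high PMN cow. KRT18 averaged 86.4 ± 13.1 CPM in high PMN cows and 408 ± 285 CPM in low PMN cows (log2 fold change -1.87, SE 0.51), and MAL2, a protein of apical traffic, averaged 37.5 ± 28.3 CPM in high PMN cows and 206 ± 113 CPM in low PMN cows (log2 fold change -2.37, SE 0.67). Glandular genes differed most: all 15 tested had lower means (median -5.29), from 99.0 to 2870.3 summed CPM in high PMN cows and 358 to 108143 in low PMN cows, where s1890 was lowest. Stromal genes ran the other way, with 24302 to 69576 summed CPM over 19 genes in high PMN cows and 1882 to 36786 in low PMN cows. Among them VIM (ENSBTAG00000018463), vimentin of connective tissue and leukocytes, did not overlap, at 2948, 5614, 3585, 3281 and 5268 CPM in high PMN cows, against 134, 2772, 531, 138 and 56.2 CPM in low PMN cows (log2 fold change 3.86, SE 0.88). The part of this shift in tissue makeup in the other lists was not tested.

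Transcription factors of epithelium had lower means in 14 of 17 cases (median -1.51). SPDEF (ENSBTAG00000021993), which drives secretory differentiation, was at 0.213, 0.403, 0.335, 1.41 and 0.240 CPM in high PMN cows, against 304, 0.3002, 54.2, 221 and 22.9 CPM in low PMN cows (log2 fold change -4.81, SE 1.26). DESeq2 called SPDEF lower with an adjusted p of 3.92e-10, and s1890 was the lowest low PMN cow, within the range of the high PMN cows. FOXA3 averaged 3.13 ± 1.74 CPM in high PMN cows and 38.5 ± 30.8 CPM in low PMN cows (log2 fold change -2.69, SE 0.83, adjusted p 0.114), and EHF, an ETS factor of epithelia, averaged 28.9 ± 20.2 CPM in high PMN cows and 219 ± 192 CPM in low PMN cows (log2 fold change -2.28, SE 0.98, adjusted p 0.176).

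Junction and polarity genes had lower means in 21 of 24 cases (median -1.36), unlike the connexins above. CDH1 (ENSBTAG00000015991), E-cadherin of adherens junctions, was at 41.0, 41.3, 151, 105.4 and 69.2 CPM in high PMN cows, against 543, 65.6, 253, 770.1 and 701 CPM in low PMN cows (log2 fold change -2.25, SE 0.66). OCLN, occludin of tight junctions, averaged 14.1 ± 5.32 CPM in high PMN cows and 68.5 ± 43.8 CPM in low PMN cows (log2 fold change -1.93, SE 0.55), and PKP2, of desmosomes, averaged 4.54 ± 3.58 CPM in high PMN cows and 40.8 ± 27.9 CPM in low PMN cows (log2 fold change -2.62, SE 0.73). Ion and fluid transport genes were lower in 19 of 25 cases (median -1.41), of which ATP12A above was an exception. AQP5 (ENSBTAG00000026813), a water channel of secretory cells, was at 0.851, 0.202, 1.01, 0.812 and 0.288 CPM in high PMN cows, against 262, 0.450, 28.7, 192 and 99.9 CPM in low PMN cows (log2 fold change -4.87, SE 1.21). AQP4, another water channel, averaged 2.50 ± 4.75 CPM in high PMN cows and 126 ± 124 CPM in low PMN cows (log2 fold change -4.72, SE 1.24).

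Motile cilium genes had lower means in 14 of 15 cases (median -1.40, and -1.67 without s1890). DESeq2 called 9 of them lower, against 6.17% of all tested genes. CCDC39 (ENSBTAG00000001969), a ruler of axoneme length, was at 0.255, 0.0672, 1.09, 0.596 and 0.911 CPM in high PMN cows, against 11.3, 0.788, 11.5, 46.1 and 61.1 CPM in low PMN cows (log2 fold change -3.31, SE 0.85). DRC1, of the regulatory complex between dyneins, averaged 1.67 ± 0.908 CPM in high PMN cows and 63.8 ± 62.6 CPM in low PMN cows (log2 fold change -3.64, SE 0.93). The highest levels were in s2224 and s2570, and s1890 lay among the high PMN cows. TUBA1A, a tubulin also used outside cilia, was the one with a higher mean, at 189 ± 57.5 CPM in high PMN cows and 114 ± 79.9 CPM in low PMN cows (log2 fold change 0.99, SE 0.52, adjusted p 0.249).

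Some genes of secreted inhibitors and complement regulators had large fold changes. SLPI (ENSBTAG00000004148), an antiprotease which protects mucosae from neutrophil elastase, was at 0.128, 0.202, 4.19, 2.76 and 0.144 CPM in high PMN cows, against 599, 0.713, 50.9, 399 and 4769 CPM in low PMN cows (log2 fold change -6.33, SE 1.73). C4BPA (ENSBTAG00000009876), which restrains complement, was at 0.341, 0.739, 6.71, 0.920 and 0.0479 CPM in high PMN cows, against 364, 2.14, 4558, 534 and 251.96 CPM in low PMN cows (log2 fold change -6.84, SE 1.56). Low PMN cows other than s1890 held levels of these transcripts that no high PMN cow reached. CLU, clusterin, averaged 1189.7 ± 657 CPM in high PMN cows and 18642 ± 15689 CPM in low PMN cows (log2 fold change -3.30, SE 1.01). Over the complement list as a whole 9 of 15 had higher and 6 lower means, a share of higher means close to that of all tested genes, with C5AR1 and CFP among the higher and C4BPA and CLU among the lower. Among prostaglandin genes 14 of 20 had higher means (median 0.95), against 59.4% of all tested genes. ALOX5, which makes leukotrienes in myeloid cells, averaged 28.5 ± 8.04 CPM in high PMN cows and 9.16 ± 17.5 CPM in low PMN cows (log2 fold change 2.89, SE 0.82). PLA2G10, a secreted phospholipase, averaged 0.827 ± 1.22 CPM in high PMN cows and 40.7 ± 35.7 CPM in low PMN cows (log2 fold change -3.73, SE 1.04).

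Matrix enzymes and fibrinolysis had the highest median of the lists outside stroma and macrophages, at 2.73 (3.50 without s1890), with higher means in 25 of 28. DESeq2 called 5 higher and limma without s1890 called 19, against 2.28% and 14.5% of all tested genes. MMP7 (ENSBTAG00000004594), matrilysin, a protease of epithelium under repair, was at 188, 103, 370.5, 815 and 616 CPM in high PMN cows, against 14.4, 123, 15.3, 63.4 and 18.2 CPM in low PMN cows (log2 fold change 3.31, SE 0.72). TGFBI, an adhesive matrix protein induced by TGF-beta, averaged 2040.4 ± 1307 CPM in high PMN cows and 311 ± 568 CPM in low PMN cows (log2 fold change 5.53, SE 1.46), and TNC, tenascin of healing wounds, averaged 414 ± 76.2 CPM in high PMN cows and 125 ± 240.0 CPM in low PMN cows (log2 fold change 3.73, SE 0.99). MMP2 (ENSBTAG00000019267), a gelatinase of fibroblasts, was at 6005, 2332, 2854, 5372 and 6824 CPM in high PMN cows, against 12.5, 4792, 880.0, 56.3 and 7.80 CPM in low PMN cows (log2 fold change 5.12, SE 1.55). In MMP2 cow s1890 stood within the range of the high PMN cows and s2006 between them and the other 3 low PMN cows.

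Wnt pathway genes were split, with 12 higher and 6 lower of 18 (median 0.64, 0.42 without s1340 and 1.38 without s2006), against 59.4% higher of all tested genes. SFRP4 (ENSBTAG00000015366), a secreted Wnt antagonist, was at 78.9, 112, 130.2, 95.2 and 103 CPM in high PMN cows, against 0.118, 128, 1.21, 0.255 and 0.392 CPM in low PMN cows (log2 fold change 4.87, SE 1.15). LEF1, a nuclear partner of beta-catenin, averaged 22.5 ± 9.21 CPM in high PMN cows and 4.14 ± 7.14 CPM in low PMN cows (log2 fold change 2.86, SE 0.67), the ligand WNT2 averaged 218 ± 139 CPM in high PMN cows and 34.4 ± 65.1 CPM in low PMN cows (log2 fold change 4.70, SE 1.27), and DKK3, of the Dickkopf family, averaged 522 ± 239 CPM in high PMN cows and 123 ± 202 CPM in low PMN cows (log2 fold change 4.66, SE 1.42). Hedgehog and Notch genes had higher means in 12 of 16 (median 1.19, and 0.78 without s2570), among them HEYL, a Notch target of vascular smooth muscle, at 47.8 ± 23.2 CPM in high PMN cows and 15.5 ± 30.6 CPM in low PMN cows (log2 fold change 3.305, SE 1.004).

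Vessel and muscle markers were higher without exception in mean level, in 9 of 9 endothelial genes (median 2.08) and 13 of 13 smooth muscle and pericyte genes (median 2.20). With all 10 cows DESeq2 called 0 genes higher in either list, against 2.28% of all tested genes. Without s1890 limma called 8 endothelial and 10 smooth muscle and pericyte genes higher, against 14.5%. Summed endothelial levels were 197 to 642 CPM in high PMN cows and 19.0 to 423 CPM in low PMN cows, and those of smooth muscle 433 to 1307 CPM in high PMN cows and 10.9 to 1297 CPM in low PMN cows. VWF, which endothelium stores for clotting, averaged 72.0 ± 36.5 CPM in high PMN cows and 18.6 ± 23.6 CPM in low PMN cows (log2 fold change 2.28, SE 0.67). TAGLN, an actin-binding protein of smooth muscle, averaged 146 ± 50.2 CPM in high PMN cows and 48.0 ± 85.1 CPM in low PMN cows (log2 fold change 3.76, SE 1.19, adjusted p 0.115).

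Cell cycle genes had higher means in 19 of 22 (median 1.05, and 1.54 without s1890). With all 10 cows DESeq2 called 0 of them higher and 1 lower, against 2.28% and 6.17% of all tested genes. Without s1890 limma called 15 higher and 1 lower, against 14.5% and 6.15%. MKI67 (ENSBTAG00000002444), present in dividing cells, was at 42.9, 79.1, 30.9, 36.3 and 11.1 CPM in high PMN cows, against 0.706, 66.7, 3.79, 1.996 and 0.654 CPM in low PMN cows (log2 fold change 2.83, SE 0.96, adjusted p 0.125). Low PMN cow s1890 was second only to s1570, and the other 4 low PMN cows were below every high PMN cow. PLK1, a mitotic kinase, ran the other way, at 6.78 ± 2.46 CPM in high PMN cows and 32.0 ± 18.5 CPM in low PMN cows (log2 fold change -1.89, SE 0.47), and DESeq2 called it lower with an adjusted p of 5.26e-04.

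**Figure D3:**
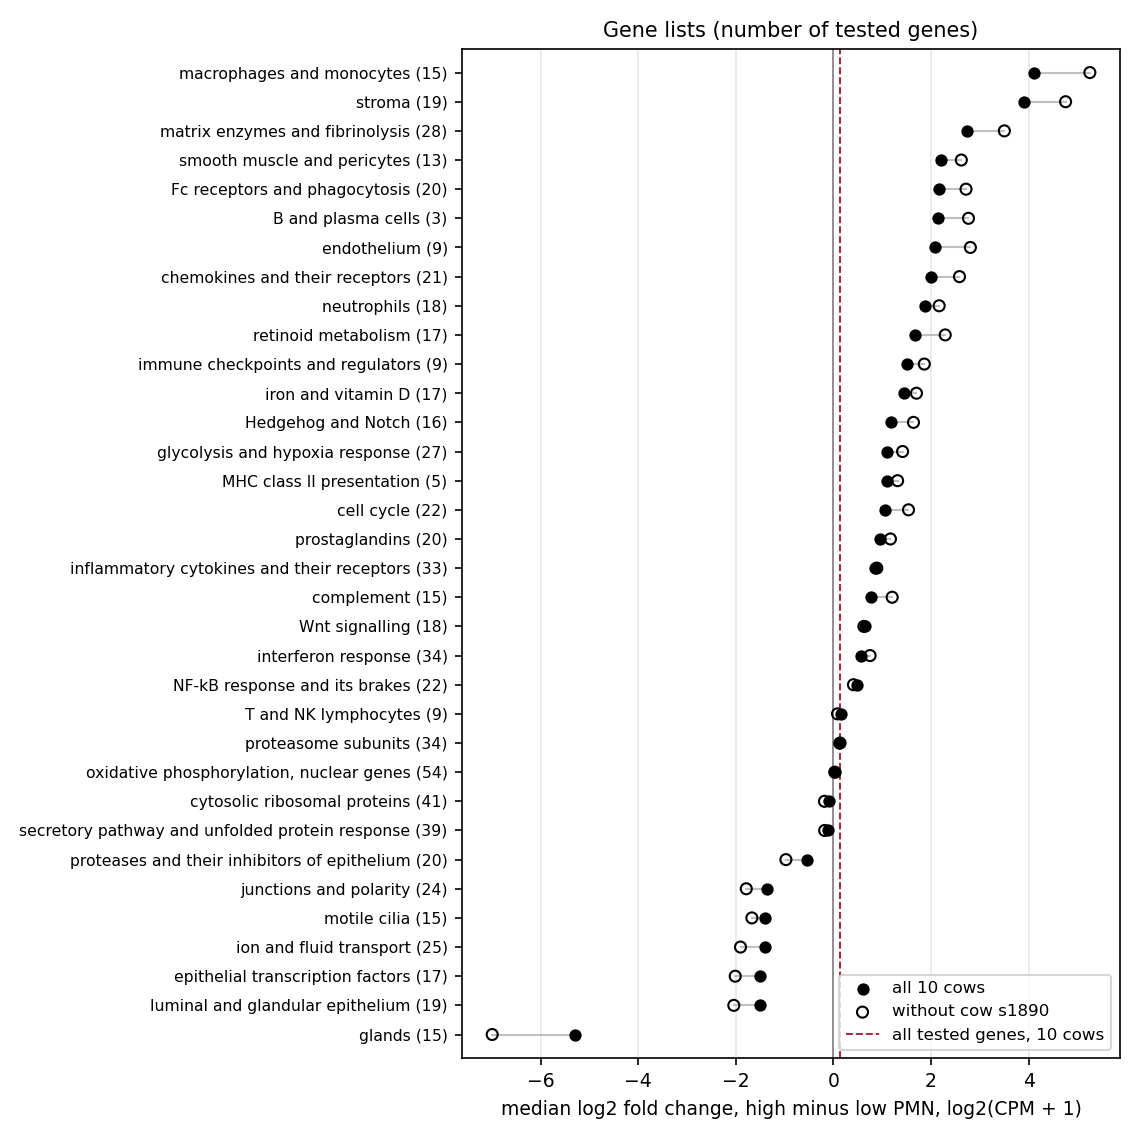
Median log2 fold change, high PMN minus low PMN cows, on the x axis for 34 gene lists with the number of tested genes in brackets. Filled points use all 10 cows, open points leave out s1890, and the dashed line is the 0.14 median of all tested genes.

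Medians of the housekeeping lists stayed near that of all tested genes. Cytosolic ribosomal proteins had a median of -0.10 over 41 genes, nuclear genes of oxidative phosphorylation 0.04 over 54, proteasome subunits 0.11 over 34, and the secretory pathway -0.12 over 39. After scaling by relative log expression the first 3 medians were -0.24, -0.10 and -0.03. The median of all tested genes was then close to 0, so each of the 3 lay slightly below it both as deposited and after scaling. As deposited, the ribosomal median turned to 0.045 without s2006, and no direction is given for these lists. In the secretory list DESeq2 called 0 of 39 genes higher and 8 lower, against 2.28% and 6.17% of all tested genes. There limma without s1890 called 1 higher and 9 lower, against 14.5% and 6.15%. Within the secretory list CREB3L4, a transcription factor of the endoplasmic reticulum, averaged 5.72 ± 1.79 CPM in high PMN cows and 77.9 ± 54.4 CPM in low PMN cows (log2 fold change -3.02, SE 0.73). The 12 lists not described singly had medians between -0.23 and 0.94, which do not show calls within a list. Among these lists, DESeq2 called 2 of 13 antimicrobial genes higher and 5 lower. In the xenobiotic and steroid enzyme list it called 1 of 27 genes higher and 8 lower, against 2.28% and 6.17% of all tested genes.

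**Figure D4:**
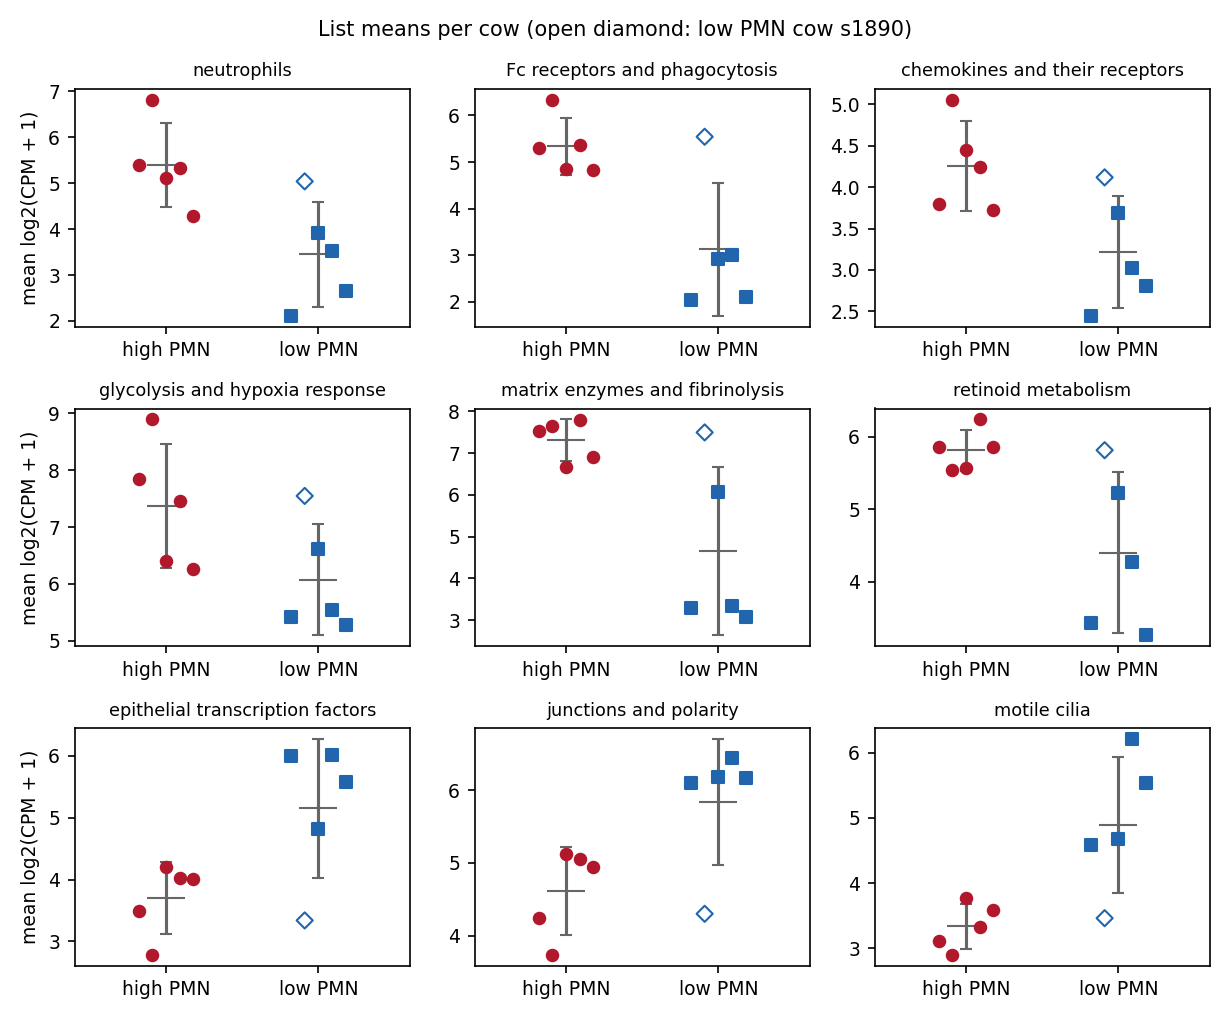
Mean log2(CPM + 1) over the genes of 9 lists for each cow, with red circles for high PMN cows, blue squares for low PMN cows, an open diamond for s1890 and grey bars for mean ± SD (n = 5 each). In the neutrophil panel high PMN cows range from 4.29 to 6.82 and low PMN cows from 2.11 to 5.04, and s1890 is the highest low PMN cow there and lowest in the epithelial panels.

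The genes that separated the 10 healthy cows were then read in the 20 diseased cows, as a description. Some of these cows were left out of the study's own comparisons for a possible metritis at sampling. Which libraries those are was not known here, and all 20 are included. The same 5 low PMN cows had served to choose these genes, so the counts below are partly set by that choice. No share over all tested genes was computed, and the counts are no finding about the Clinical and Sub-clinical cows. The median of the Clinical cows lay above all 5 low PMN cows for 47 of the 55 higher genes and below all of them for 66 of the 67 lower genes. For single Clinical cows the share of the higher genes above all low PMN cows was 54.5% to 83.6% (median 74.5%), and that of the lower genes below them 58.2% to 92.5% (median 88.8%). In Sub-clinical cows the medians lay beyond all low PMN cows for 46 of 55 higher genes and 58 of 67 lower genes. Sub-clinical cows differed widely among themselves, from 7.27% to 96.4% (median 69.1%) for the higher genes and from 11.9% to 95.5% (median 74.6%) for the lower genes. C5AR1 had a median of 79.2 CPM (31.2 to 341) in Clinical cows and 35.5 CPM (10.1 to 186) in Sub-clinical cows, against 2.24 to 28.1 CPM in low PMN healthy cows. IL18 had a median of 16.4 CPM (9.003 to 37.9) in Clinical cows and 18 CPM (10.5 to 74.8) in Sub-clinical cows, against 19.9 to 36.4 CPM in low PMN healthy cows, and SATB1 had a median of 17.5 CPM (7.18 to 28.7) in Clinical cows and 18.3 CPM (8.76 to 57.2) in Sub-clinical cows, against 21.6 to 58.2 CPM in low PMN healthy cows. The PMN shares of the Clinical and Sub-clinical cows were not used here.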

How the data were processed

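The deposited CPM were computed by the authors from reads counted per gene, with no further scaling factor. The submitters' notes name STAR, featureCounts, R 3.3.2, edgeR 3.18.0 and the bovine build UMD3.1. Only CPM columns were used, and the authors' fold changes, p values and rates were left out. In these tables all values were whole multiples of 1 read within 0.01, but libraries s1890 and s2053 hold too few low values to check this. Genes reaching 1 CPM in 5 or more libraries were tested on log2(CPM + 1) with limma 3.58.1 in R 4.3.3 (trended eBayes). edgeR 4.0.16 and DESeq2 1.42.0, run on the reads recovered from the CPM, were alternatives, as were other scalings, pseudocounts and leaving out each cow. DESeq2 gave no adjusted p for 182 genes. Single values were compared by exact permutation over cows. Methods were tested on simulated data. Named genes were the 12 of smallest p in each direction beyond a log2 fold change of 1 outside the gland, stroma and macrophage lists, 3 of smallest p and the most abundant of each list, and genes named in the study. Not all are printed, and others are marked as picked later. The cows compared and the gene lists were chosen with earlier results of these data known. SLC25A48 failed the filter and was not tested. Positions were not used, and the sequencing pool of each library was not known here.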

Additional observations from a re-analysis of the deposited data

Results flagged for a closer look

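Samples far from the other 4 of their group were sought by Dixon's criterion in 280 groups of 5 values, and 29 were found, where chance gives about 14. Of these 12 concerned low PMN cow s1890 and 6 high PMN cow s1570. All values are log2(CPM + 1) unless a count, and each is set beside its nearest neighbour in the group.

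In low PMN cow s1890, the mean of Fc receptors and phagocytosis was 5.54, with 3.01 in the nearest low PMN cow, the mean of MHC class II presentation was 6.57, with 5.10 in the nearest low PMN cow, and the mean of junctions and polarity was 4.30, with 6.10 in the nearest low PMN cow. In the same cow s1890, ATP12A was 4.16, with 1.25 in the nearest low PMN cow, CR2 was 4.65, with 1.51 in the nearest low PMN cow, and CYP26A1 was 1.73, with 0.12 in the nearest low PMN cow. Further in s1890, IL10RA was 4.53, with 2.13 in the nearest low PMN cow, LEF1 was 4.16, with 1.47 in the nearest low PMN cow, and MAL2 was 5.02, with 7.40 in the nearest low PMN cow. Also for s1890, MKI67 was 6.08, with 2.26 in the nearest low PMN cow, SFRP4 was 7.01, with 1.14 in the nearest low PMN cow, and SIGLEC1 was 4.80, with 1.09 in the nearest low PMN cow. In high PMN cow s1570, the mean of interferon response was 7.11, with 5.46 in the nearest high PMN cow, AKAP9 was 6.22, with 6.798 in the nearest high PMN cow, and BATF3 was 3.32, with 2.47 in the nearest high PMN cow. In the same cow s1570, DUSP6 was 8.08, with 6.91 in the nearest high PMN cow, FCER1G was 8.43, with 6.93 in the nearest high PMN cow, and TUBA1A was 6.52, with 7.61 in the nearest high PMN cow. In low PMN cow s2006, the number of counted reads was 12387100, with 22951900 in the nearest low PMN cow, the mean of complement was 7.63, with 6.25 in the nearest low PMN cow, and CLK1 was 8.74, with 7.98 in the nearest low PMN cow. In the same cow s2006, CLK4 was 7.46, with 6.41 in the nearest low PMN cow. In high PMN cow s1831, AQP4 was 3.58, with 0.86 in the nearest high PMN cow, IL10RA was 3.88, with 4.78 in the nearest high PMN cow, and SYCP3 was 3.23, with 2.30 in the nearest high PMN cow. In low PMN cow s1340, STEAP4 was 0.87, with 3.24 in the nearest low PMN cow. In high PMN cow s2053, SPDEF was 1.27, with 0.49 in the nearest high PMN cow. In low PMN cow s2224, MYBPC2 was 6.74, with 4.45 in the nearest low PMN cow. In low PMN cow s2570, CEP95 was 6.53, with 5.98 in the nearest low PMN cow.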

How the results depend on the processing

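The count of called genes depended most on method and on cow s1890. Called higher and lower were 0 and 0 genes as reported, 238 and 643 with DESeq2, 940 and 376 when all 30 cows shared the spread, and 2261 and 860 with array weights. Other pseudocounts, no filter and other scalings of the 10 cows also called 0. Leaving out each cow gave 0 to 1510 higher and 0 to 641 lower calls. The highest counts came without s1890, and without s1066 there was 1 lower call. In alternatives chosen after seeing the data, s1890 was also left out with edgeR (1974 in all, 908 of them lower), DESeq2 (1498 and 1058), relative log expression scaling (1334 and 863) and TMM scaling (1325 and 880). Those scalings moved the share of higher calls. The cause of these shifts was not tested.

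Genes without overlap numbered 55 higher and 67 lower. With relative log expression scaling 113 were lower. Leaving out each cow, which leaves fewer cows to separate, gave 57 to 1241 higher (218 without s1570, 568 without s1831, 92 without s2392, 1241 without s1890) and 74 to 652 lower (564 without s1831, 652 without s1890, 109 without s2006). The spread within groups differed by -55.8 to -18.1 over the cows left out, with an exact p of 0.0397 without s1570. The difference in counted reads ranged from -6736770 to -2781080, with an exact permutation p of 0.0317 without s2006.

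Of 34 lists under 13 settings each, 429 of 442 medians kept their direction and moved by less than 1 SD between the cows of a group in mean log2(CPM + 1) of the list, which is a wide allowance. Leaving out 1 cow moved the median of 13 lists by over 1.5 times or turned it, and among these the interferon median ranged from 0.25 to 0.79, NF-kB from 0.28 to 0.698, Wnt from 0.42 to 1.38, T and NK cells from 0.031 to 0.42 and epithelial proteases and inhibitors from -0.97 to -0.26. With 0.1 CPM added the Wnt median was 1.504 and the chemokine median 2.66. Leaving out each cow, the chemokine median ranged from 1.10 to 2.58 (1.10 without s1570), the complement median 0.27 to 1.67 (1.67 without s2006), the ribosomal median -0.35 to 0.045 and that of oxidative phosphorylation -0.051 to 0.084. The last was -0.099 with relative log expression and -0.11 with TMM scaling, and proteasome subunits were at -0.030 and -0.038 under these scalings. Of the 104 named genes CSF3R alone changed direction, at -0.022 with array weights, and, without s1890, -0.15 with edgeR and -0.15 with DESeq2. Over the cows left out its fold change ranged from -0.0057 to 1.19. No paired analysis was possible because each animal belongs to a single group. One read was worth 0.0375 to 0.0839 CPM in these libraries, so levels near that carry large counting error.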
